A study of Mus musculus with 18 samples.

Results

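Basal keratinocytes are the cells of the innermost layer of the epidermis and of the outer wall of the hair follicle. The cells came from skin of mice that received an expander under the skin, and of operated mice that did not. Of 47251 cells kept after quality filters, 1412 were basal keratinocytes with few or no transcripts of chosen marker genes of the hair follicle bulge. They were chosen by transcripts alone, from droplet-based single-cell counts of unique molecular identifiers (UMIs), which count captured mRNA molecules. A member had at least 0.3% of its UMIs from Krt5 and Krt14, the keratins of the basal layer, and no UMI of Ptprc, the pan-leukocyte gene for CD45. It also had fewer than 3 UMIs summed over the bulge genes Krt24, Lhx2 and Cd34, fewer than 0.2% of UMIs from the spinous keratins Krt1 and Krt10, fewer than 2 UMIs of Krt79, fewer than 20 of Scd1, and fewer than 3 summed over the cycling genes Mki67, Top2a, Cdk1 and Birc5. Of the kept cells, 4642 had the keratin level, 4489 of these had no Ptprc, 2599 passed the bulge limit, 2493 the Krt1 and Krt10 limit, 1706 the Krt79 limit and 1704 the Scd1 limit. The 14 genes of the rule were taken out of every test below, since the choice of cells fixed their levels.

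Per the labels, every mouse was operated, with a cut on the back close to the tail from which a path was opened beneath the skin as far as the neck. The expanded arm carried a hydrogel expander there and the control arm none, so both arms share the operation. Skin was collected on day 1, 2 or 4, and viable cells, negative for DAPI, were sorted. Each arm had 5 libraries: day 1 in sequencing rounds 1 and 2, day 2 in rounds 1 and 2, and day 4 in round 1. The title of the control sample of day 1, round 2 names it as hashing, while its library type and description give mRNA and its files hold gene counts, so it was used as the mRNA library. All mice of an arm and round were pooled in 1 tube, strain, sex and age are not given in the labels used here, and p-values measure the spread between pools. Values per library are given below in the order day 1 rounds 1 and 2, day 2 rounds 1 and 2, day 4. In that order the control libraries held 96, 265, 25, 115 and 115 members, 616 in all, and the expanded libraries held 176, 416, 52, 38 and 114, 796 in all.

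Basal keratinocytes hold the epidermis to its basement membrane through hemidesmosomes, plaques in which the integrin of Itga6 and Itgb4 and collagen XVII (Col17a1) link the keratin network to laminin. They divide to renew the layers above, and cells that leave the basal layer switch from Krt5 and Krt14 to Krt1 and Krt10. Basal cells of the surface between follicles and those of the follicle wall carry the same keratins, and are told apart by genes such as Ly6a at the surface and Sox9 and Lgr5 in the follicle.

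The label was first checked against markers that the rule did not use. To compare cells of unequal depth, each cell was thinned at random to 2000 UMIs, which left out 91 shallower members (42 control, 49 expanded) and kept 1321. Col17a1 was detected in 66.2% of thinned members (85.5% before thinning) and Itga6 in 47.5% (79.8%). In cells with a Ptprc UMI, taken for comparison, the thinned shares were 0.640% and 2.81% (13742 cells). Median depth before thinning was 9559.5 UMIs per member and 7236 per cell with Ptprc. Trp63, the transcription factor of stratified epithelia, was detected in 35.9% of thinned members and Krt15, a keratin of resting basal cells, in 84.2%. These are markers of basal keratinocytes, and all were detected. They do not set the members apart from bulge, spinous and cycling cells, each of which exceeded the rule's limit of that name and met all others. Col17a1 was found in 85.4% of bulge, 64.2% of spinous and 61.8% of cycling cells, and Itga6 in 43.3%, 43.2% and 46.9%. Krt15 was found in 91.9%, 80.2% and 79.2% of the same groups, and Trp63 in 46.7%, 37.0% and 30.2%. Krt15 was thus detected more often in bulge cells than in members. Transcripts of follicle cells were frequent as well: Sox9, a transcription factor of the follicle wall, in 50.9%, Sostdc1, a Wnt and BMP antagonist, in 35.3%, Postn, a matrix protein, in 34.7% and Lgr5, a Wnt receptor partner of follicle stem cells, in 9.84%. Bulge cells had Postn in 67.9% and Lgr5 in 28.04%. Mt4 and Krt77, genes of cells that leave the basal layer, were found in 0.379% and 1.97% of members, against 23.5% and 48.1% of spinous cells. Markers of surface and of follicle basal cells were thus both detected among the members, and the name basal keratinocyte is used below for all of them.

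At the edges of the rule, the summed level of Col17a1 and Itga6 is given as a description. Its median was 631 CPM (a cell's counts scaled to 1000000 UMIs) in the 91 members with 0.3 to 0.4% keratin UMIs, against 318 CPM in the 68 cells with 0.2 to 0.3%. It was 1033 CPM in the 206 members with 2 bulge-gene UMIs and 1156 CPM in the 170 cells with 3. The 147 members with 1 Krt79 UMI had a median of 725 CPM, against 541 CPM in the 75 cells with 2. For the cycling genes the medians were 869 CPM in 89 members with 2 UMIs and 921 CPM in 48 cells with 3.

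Summed per library, and without the rule's own genes, the most abundant members' transcripts included Malat1, a nuclear RNA, at 19279 CPM, Apoe, a lipid carrier, at 9296 CPM, and Tpt1, a growth-linked protein, at 9220 CPM (means of 10 libraries). CPM here are 3′ counts, 1 tag per molecule and not divided by gene length. The stress-inducible transcription factors Fos (6872 CPM), Jun (4385 CPM) and Atf3 (3975 CPM) were also among them, with the galectin Lgals7 (6698 CPM), Krt15 (4395 CPM) and the checkpoint protein gene Sfn (3265 CPM). Relative to all other kept cells of the same libraries, the largest ratios of means were those of Fcgbp (18.2), Epgn, an EGF receptor ligand (17.7), Pthlh, the parathyroid hormone-related peptide (14.7), Gjb2, a gap junction connexin (13.5), Sox21 (10.7) and Ccl27a, a skin T cell chemokine (10.7). All but Gjb2 were higher in members than in the other cells in 10 of 10 libraries, and Gjb2 was in 8. These ratios follow from choosing epithelial cells and were not tested.

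Within the members, detection of several surface and follicle markers differed with the share of keratin transcripts, and that of others did not. In 4 bins of rising Krt5 and Krt14 share (166, 490, 438 and 227 thinned members), Ly6a was detected in 10.8%, 14.7%, 25.6% and 47.1% of cells. Lgr5 went the other way, with 16.9%, 12.7%, 8.22% and 1.76%, and Sox9 was found in 56.6%, 57.6%, 52.5% and 29.5%. Fst, the activin antagonist follistatin, followed Sox9 (51.8%, 44.5%, 38.4% and 14.1%), and Plet1, a gene of the follicle's upper part, declined less (42.8%, 40.2%, 36.1% and 24.2%). Other follicle transcripts did not decline from bin to bin as Lgr5 did. Postn was found in 37.3%, 32.9%, 34.2% and 37.9%. Sostdc1 was lower in the highest bin only, with 36.1%, 39.0%, 39.7% and 18.1%. Krt17, a keratin of the follicle's outer wall, was found in 65.7%, 63.7%, 61.4% and 57.7%. Krt6a, a keratin of the follicle's companion layer and of wounded epidermis, was found in 17.5%, 18.8%, 28.5% and 37.9%. The hemidesmosome genes differed little over the bins, with Col17a1 between 60.8% and 71.4% and Itga6 between 42.2% and 53.3%. Detection of Ly6a and of Sox9 overlapped in few cells: 99 thinned members had both, 210 only Ly6a, 574 only Sox9 and 438 neither. Sox9 was thus detected in 32.0% of Ly6a-positive and 56.7% of Ly6a-negative members. Beside the members' 23.4%, Ly6a was detected in 4.98% of thinned bulge cells, 43.2% of spinous and 48.6% of cycling cells. It was found in 13.1% of cells over the Krt79 limit alone and in 16.4% of cells with a Ptprc UMI.

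The bins are defined by the rule's own keratins, so they carry no test, and cells of 1 library are not independent. In the highest bin, over 2% keratin UMIs, Ly6a was detected in 29.9% of 77 control members and 56.0% of 150 expanded members (exact 95% binomial intervals 19.97 to 41.4% and 47.7 to 64.1%, counting error only). Over the libraries, the share of thinned members with Ly6a was 17.6%, 15.4%, 9.09%, 20.2% and 14.6% in the control arm and 38.0%, 31.0%, 16.3%, 26.7% and 11.2% in the expanded arm. It was higher with an expander in 4 of 5 pairs of a day and round, and the arms overlapped. As a level, summed Ly6a did not pass the test between arms (log2 fold change 0.87, edgeR adjusted p = 0.146). Sox9 was found in 53.2 ± 10.3% of control and 47.2 ± 8.37% of expanded members (SD, n = 5 libraries each).

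**Figure D1:**
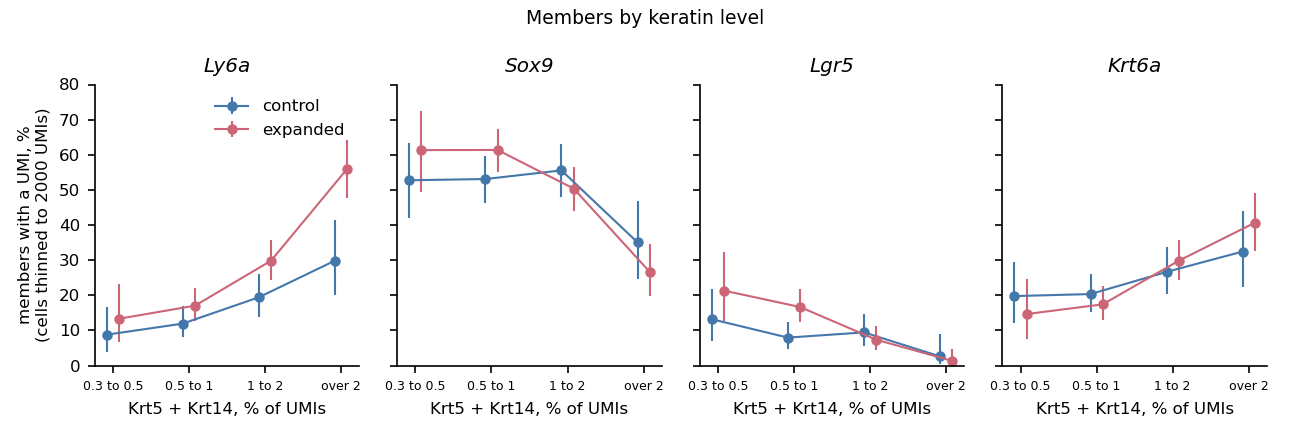
Share of thinned members with a UMI of Ly6a, Sox9, Lgr5 or Krt6a (y axis, percent) against the bin of their Krt5 and Krt14 share of UMIs (x axis), for control and expanded members pooled over libraries, with exact 95% binomial intervals. Ly6a reached 29.9% of control and 56.0% of expanded members in the highest bin, while Lgr5 over both arms was at 1.76%.

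Members of the expanded arm yielded more UMIs per cell in every library. The median per member ranged from 7062 to 9606 UMIs (median of libraries 7635) in the control arm and from 10442.5 to 15468 (12554) in the expanded arm, with no overlap. Genes detected per member did not overlap either, at 2082 to 2611 against 2888 to 3643.5, whereas the mitochondrial share overlapped (2.29 to 4.13% against 2.39 to 3.90%). Transcripts of fibroblasts in the members moved the opposite way. Summed over 15 fibroblast genes, they made up 471 to 1757 CPM (median 1063) in control and 144 to 366 CPM (median 215) in expanded libraries, lower in 5 of 5 pairs, and none of the 15 genes was at 0. Myeloid genes (17) summed to 72.2 to 375 CPM in control and 133 to 590.2 CPM in expanded libraries, and were lower in 1 of 5 pairs. The lymphocyte list ran from 25.8 to 107 against 14.2 to 59.6 CPM with Gzmb at 0, and the endothelial and mural list from 5.16 to 171 against 6.14 to 24.1 CPM. The melanocyte and Schwann list ran from 25.8 to 201 against 14.2 to 85.6 CPM with Cdh19 at 0, sebocyte genes from 98.0 to 183 against 138 to 188 CPM, and muscle genes from 0 to 21.2 against 1.59 to 6.09 CPM with Myh4 and Myod1 at 0. Gene UMIs per library, over all cells, ran from 17726739 to 75470722, members' summed UMIs from 193783 to 5037650, and 8.6 to 24.4% of a library's barcodes were over the mitochondrial limit. No member barcode was shared between libraries (263 were among all kept cells). The part of depth and of other cells' transcripts in the comparisons below was not tested, beyond the fits with thinned cells and with members low in such transcripts.

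**Figure D2:**
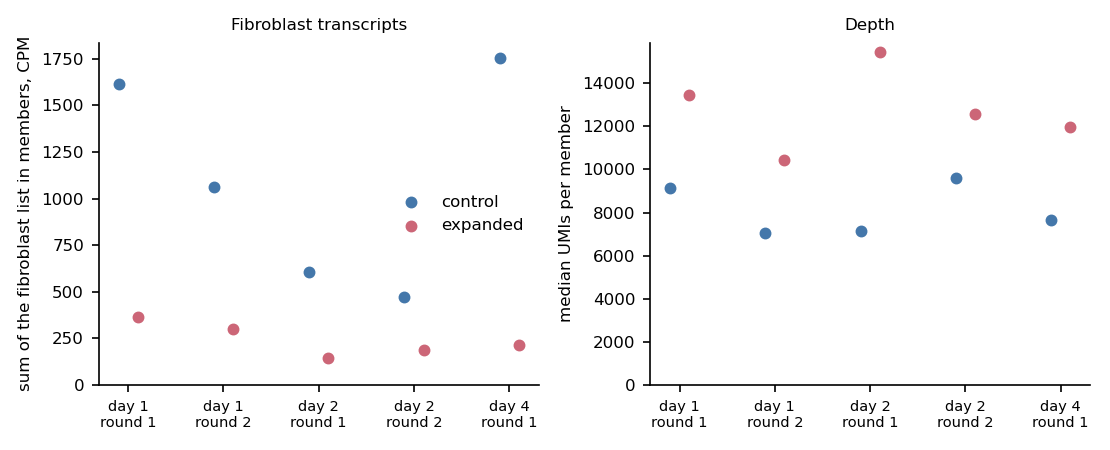
Summed CPM of the 15 fibroblast genes in members (left) and median UMIs per member (right), one point per library, by arm and pair of day and round. Fibroblast transcripts were lower in the expanded library of all 5 pairs and UMIs per member were higher, at 10442.5 or more against 9606 or fewer.

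The first comparison asked whether the members' share of the sorted cells differed between arms. Among Ptprc-negative cells, members made up 2.16%, 4.21%, 1.63%, 2.93% and 2.10% in the control libraries and 7.52%, 10.6%, 3.59%, 3.49% and 5.50% in the expanded libraries. The share was higher with an expander in 5 of 5 pairs, and the arms overlapped through the control library of day 1, round 2. The means were 2.61 ± 1.01% and 6.14 ± 2.99% (SD, n = 5 each; exact permutation test, two-sided, p = 0.0317, adjusted over 3 shares p = 0.0952). Among all kept cells the shares were 1.90 ± 0.780% and 3.97 ± 2.45% (exact permutation p = 0.0873, adjusted p = 0.119). They were 1.65%, 3.19%, 1.14%, 1.97% and 1.53% in the control and 5.96%, 7.08%, 1.53%, 1.97% and 3.33% in the expanded libraries, level in day 2, round 2 and higher with an expander in the other pairs. Within the keratin-positive, Ptprc-negative cells the direction was opposite: members were 26.4%, 47.7%, 44.6%, 30.1% and 32.8% of the control and 25.1%, 31.2%, 31.1%, 28.8% and 25.5% of the expanded cells, lower in 5 of 5 pairs (exact permutation p = 0.119, adjusted p = 0.119). None of the 3 adjusted p-values passed 0.05; the smallest p that 5 against 5 libraries allow is 0.00794, and permuting within pairs cannot go below 0.0625.

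The rule's limits in UMIs are easier to exceed in deeper cells, and the expanded members were deeper. With the rule applied after thinning every cell to 2000 UMIs, the share among Ptprc-negative cells differed by 8.57 percentage points (exact permutation p = 0.00794, adjusted p = 0.0238) and the share within keratin-positive cells by -2.01 (exact permutation p = 0.516). The limits in UMIs were left unchanged at this lower depth. Bulge, Krt79-positive, cycling and Ptprc-positive cells could then pass, so the cells counted are not those of the other shares. Their part in these differences was not tested. Without the expanded library of day 2, round 1 or of day 2, round 2, the difference among Ptprc-negative cells was 4.17 or 4.20 points (each exact permutation, adjusted p = 0.0476). Without the expanded library of day 2, round 1, that among all kept cells was 2.69 points (exact permutation, adjusted p = 0.0476). Tissue digestion and sorting can set such shares, and their part was not tested.

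**Figure D3:**
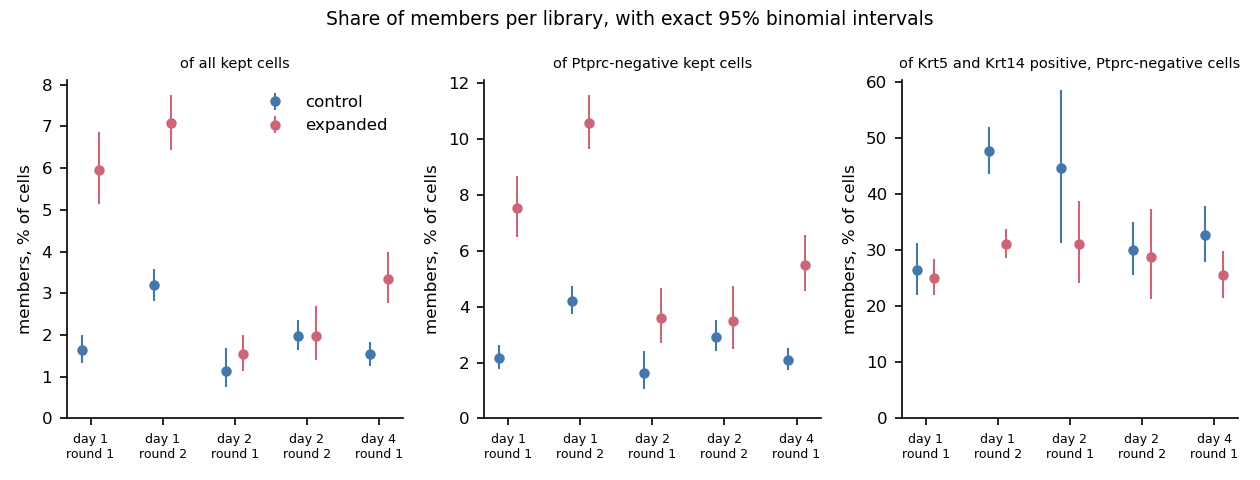
Members as a share (y axis, percent) of all kept cells, of Ptprc-negative cells and of keratin-positive, Ptprc-negative cells, one point per library with its exact 95% binomial interval, by arm. Among Ptprc-negative cells the expanded library of every pair lies above its control, from 3.49 to 10.6% against 1.63 to 4.21%, among all kept cells the pair of day 2, round 2 is level at 1.97%, and in the last panel every expanded library lies below its control.

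The main comparison asked which genes differed in members between expanded and control skin over the 3 days. UMIs were summed over the members of a library, and 7706 genes were fitted in edgeR by quasi-likelihood, on day and arm. An expander went with 2 cold-inducible RNA-binding protein genes, the water channel gene Aqp3, genes of the mevalonate pathway, the polyamine enzyme genes Srm and Odc1 and the nuclear transport genes Ran and Ranbp1 at higher levels. Genes of cytosolic heat shock chaperones, Matn4, Akr1c18 and collagen genes were at lower levels. In all, 299 genes (3.88% of those tested) had an adjusted p under 0.05, of which 149 were higher (1.93%) and 150 lower (1.95%). The direction was the same in 5 of 5 pairs for 253 of them. The libraries of the arms did not overlap for 423 genes (5.49%), with the expanded arm higher for 319 (4.14%) and lower for 104 (1.35%), and 140 genes met both criteria. Over all tested genes the median log2 fold change was -0.018 and 1914 genes had an unadjusted p under 0.05.

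The count changed when cells were thinned and when the design was changed. Fitted on members thinned to 2000 UMIs, which left 2702 genes testable, 27 genes passed, 25 of them among the 299. With each pair of day and round as a block, 563 genes passed, 293 of them shared. Among the named genes, 13 of 53 passed under every alternative run that tested them: Rbm3, Cirbp, Aqp3, Idi1, Chchd10, Cstdc5, Rbp2, Matn4, Akr1c18, Col1a1, Col1a2, Col3a1 and Sparc. Of 20 such runs, Idi1 and Matn4 were tested in 19, Akr1c18 in 17 and Rbp2 in 15. None of the 53 changed direction. Without the control library of day 1, round 1 the count was 27, and without the expanded library of day 1, round 2 it was 29.

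Rbm3 and Cirbp, which encode RNA-binding proteins induced by mild cold and by growth conditions, rose together. Rbm3 (chrX:8138975-8145880, minus strand, mm10) was at 575, 476, 475, 563 and 568 CPM in the control libraries. With an expander the values were 1161, 1564, 1373, 1404 and 1259.5 CPM. All 5 expanded libraries were above all 5 control libraries, with the lowest expanded library at 1161 CPM (531 ± 51.3 against 1352 ± 153 CPM, SD, n = 5; edgeR adjusted p = 0.000635 for a log2 fold change of 1.26, SE 0.12). Cirbp (chr10:80165985-80172786, plus strand) was at 79.9, 60.6, 46.4, 59 and 35.3 CPM in the control libraries. In the expanded arm it was at 202, 178, 92, 132 and 153 CPM. These did not overlap either (56.2 ± 16.7 against 152 ± 42.5 CPM; edgeR adjusted p = 0.00407 for a log2 fold change of 1.36, SE 0.19). Of the 4 genes of this list, 2 rose, where 1.93% of all tested genes rose. The other 2, the splicing factor genes Srsf5 (0.055) and Srsf2 (0.17, both log2 fold changes), did not pass the test, and the list's median was 0.71. The rises of Rbm3 and Cirbp passed without each of the 10 libraries, with thinned members and with members low in other cells' transcripts.

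Aqp3 encodes the aquaglyceroporin that carries water and glycerol into basal keratinocytes. It (chr4:41092722-41098183, minus strand) was at 311, 261, 408, 383 and 403 CPM in the control libraries. Expanded libraries gave 739, 758, 797, 919 and 739 CPM. The arms were separate, and the expanded mean was 790.3 ± 75.7 CPM against 353 ± 64.3 CPM (edgeR adjusted p = 0.00213 for a log2 fold change of 1.10, SE 0.13). It was the gene of the basal identity list that rose, of 22 tested, where 3.88% of all tested genes passed in either direction. The other that passed, Dcn, is a fibroblast gene that the list also holds. Trp63 was at 212 ± 13.3 against 212 ± 40.6 CPM (log2 fold change -0.080, edgeR adjusted p = 0.756) and Krt15 at 4178 ± 447 against 4612 ± 905 CPM (0.052, edgeR adjusted p = 0.847), and the list's median was -0.30.

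**Figure D4:**
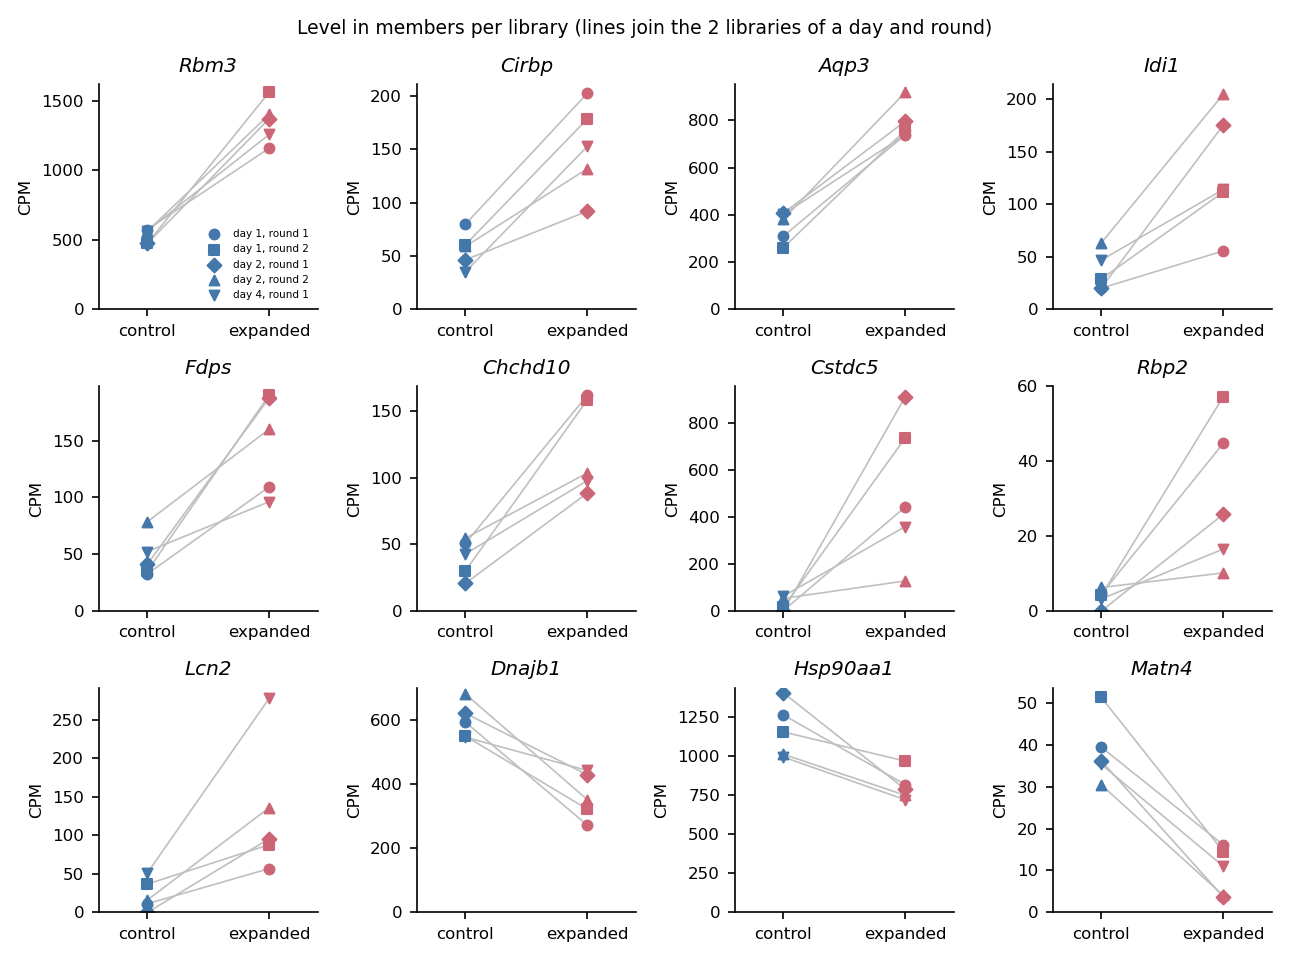
CPM of 12 genes in the members of each library (y axis), control beside expanded, with lines joining the libraries of a day and round. The expanded libraries lie above every control library for Rbm3, Cirbp, Aqp3, Fdps, Chchd10, Cstdc5, Rbp2 and Lcn2 and below every control library for Dnajb1, Hsp90aa1 and Matn4, and Idi1 overlaps through 1 control library at 63.5 CPM.

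Of 20 tested genes of cholesterol synthesis, 4 rose, where 1.93% of all tested genes rose. None fell and 19 had a positive log2 fold change (median 0.59, against -0.018 over all tested genes). The 4 act in the part of the pathway up to farnesyl diphosphate and in its control. Idi1 (chr13:8885501-8892451, plus strand), which isomerises isopentenyl diphosphate, was at 20.3, 29, 20.6, 63.5 and 47 CPM in the control libraries. With expansion it stood at 55.7, 112, 176, 205 and 114 CPM. The expanded library of day 1, round 1, at 55.7 CPM, was below the control library of day 2, round 2, at 63.5 CPM, and every pair was higher with an expander (edgeR adjusted p = 0.00474 for a log2 fold change of 1.62, SE 0.23). Fdps (chr3:89093588-89101959, minus strand), the farnesyl diphosphate synthase, was at 32.6, 35.2, 41.3, 78.7 and 52.4 CPM in the control libraries. The values with an expander were 109, 190.4, 188, 160.3 and 96.3 CPM. The arms did not overlap (edgeR adjusted p = 0.00503 for a log2 fold change of 1.53, SE 0.22). Mvk, the mevalonate kinase, was higher in 5 of 5 pairs, from 12.1 ± 2.79 to 28.4 ± 12.6 CPM (edgeR adjusted p = 0.0397 for a log2 fold change of 1.26, SE 0.30). Srebf2, the transcription factor that switches the pathway on, went from 46.7 ± 6.82 to 77.6 ± 9.10 CPM with no overlap (edgeR adjusted p = 0.0373 for a log2 fold change of 0.61, SE 0.14). Acat2, which joins acetyl-CoA units at the head of the pathway and was not on the list, rose as well (edgeR adjusted p = 0.030 for a log2 fold change of 1.39, SE 0.29).

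No other tested gene of the list passed. Hmgcs1, the HMG-CoA synthase of an early step, was at 157 ± 40.8 against 225 ± 33.3 CPM (log2 fold change 0.44, edgeR adjusted p = 0.125). Of the sterol enzymes, Ebp (0.64), Msmo1 (0.74), Hsd17b7 (0.89) and Nsdhl (0.88) had positive log2 fold changes in 5 of 5 pairs each, with edgeR adjusted p between 0.0677 and 0.0998. Sqle, the squalene epoxidase, had a log2 fold change of -0.0052. Mvd and Lss were below the filter, with 8 against 83 and 25 against 122 UMIs in all members of the control and expanded arms, of 5069180 and 10348219. With thinned members, Fdps had an edgeR adjusted p of 0.0524 and Srebf2 of 0.322; with members low in other cells' transcripts, Idi1 and Fdps passed and Mvk did not (0.0509). The call of Acat2 was lost without any of the 4 day 1 libraries or the expanded library of day 2, round 2 (adjusted p = 0.0654 to 0.107). The call of Mvk was lost without any of the 4 day 1 libraries, the control library of day 2, round 1 or the expanded library of day 2, round 2 (adjusted p = 0.0528 to 0.14). The call of Srebf2 was lost without any of the 4 day 1 libraries, either day 4 library, the control library of day 2, round 1 or the expanded library of day 2, round 2 (adjusted p = 0.0537 to 0.112). Idi1 and Fdps kept theirs without each library.

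Promoter letters of 3 list genes that held a match are shown so that the elements searched for can be seen; Idi1 and Mvk passed the test and Hmgcs1 did not. RefSeq promoters on GRCm38.p6 matched 16 of 24 list genes, with 19 start sites, and the 250 bases before each start were searched on both strands. The motifs were the CCAAT box with the letters CCAATNAG, a sterol regulatory element with the letters TCACNCCAC, and the heat shock element of the units GAA, TTC and GAA, each 2 bases apart, with no overlap among the matches shown. Capitals mark matches, and each sequence is given 5′ to 3′ in the direction of the gene.
Idi1, chr13:8885356-8885605, plus strand: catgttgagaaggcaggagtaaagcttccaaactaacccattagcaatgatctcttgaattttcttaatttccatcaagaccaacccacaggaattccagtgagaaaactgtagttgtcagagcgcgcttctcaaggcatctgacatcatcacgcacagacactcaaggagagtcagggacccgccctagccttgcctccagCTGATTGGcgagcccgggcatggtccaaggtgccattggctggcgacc
Mvk, chr5:114444019-114444268, plus strand: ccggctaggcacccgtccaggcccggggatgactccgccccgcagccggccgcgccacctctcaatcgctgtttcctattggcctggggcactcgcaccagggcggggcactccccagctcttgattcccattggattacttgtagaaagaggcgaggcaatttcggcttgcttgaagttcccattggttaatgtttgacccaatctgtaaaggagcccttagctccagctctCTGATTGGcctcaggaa
Hmgcs1, chr13:119690101-119690350, plus strand: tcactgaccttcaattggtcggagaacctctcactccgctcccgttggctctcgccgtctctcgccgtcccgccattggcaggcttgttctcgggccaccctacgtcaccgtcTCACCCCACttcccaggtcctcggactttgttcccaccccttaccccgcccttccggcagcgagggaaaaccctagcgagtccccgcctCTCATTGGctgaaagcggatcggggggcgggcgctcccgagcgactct
In the Idi1 and Hmgcs1 windows the CCAAT match, on the opposite strand, began 48 bases before the start site, and in the Mvk window 17 bases. The sterol element of Hmgcs1 began 137 bases before it. The CCAAT letters were present in 8 of 19 list promoters (42.1%, against 6.56% of all 32851 promoters), the sterol element in 1 (5.26%, against 1.05%) and the heat shock element in 0 (against 0.466%). The promoter of Srebf2, which passed the test, held no full match to any of these motifs. The letters CCAAT alone were not searched for. On the opposite strand they occur in the Srebf2 window and, uncapitalised, in the windows shown. A match is a description of letters and not a bound site, and no binding was measured.

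Genes of cell growth and ribosome biogenesis were the next group: 5 of 22 rose, none fell and 19 had positive log2 fold changes (median 0.45). Among all tested genes 1.93% rose, and 3713 of 7706 had positive values. Ranbp1, a partner of the nuclear transport GTPase Ran, was at 149, 149.6, 124, 223 and 154 CPM in the control libraries. The expanded libraries had 300.1, 338, 303, 300.3 and 259 CPM. No expanded library was below a control library (edgeR adjusted p = 0.0132 for a log2 fold change of 0.81, SE 0.14). Ran itself rose (log2 fold change 0.56, edgeR adjusted p = 0.0397), as did Srm, the spermidine synthase, with separate arms (43.3 ± 12.3 against 83.8 ± 19.4 CPM; log2 fold change 0.96, edgeR adjusted p = 0.0326), Odc1, which makes the polyamine putrescine (log2 fold change 0.94, edgeR adjusted p = 0.0307), and Nhp2, a small nucleolar RNA protein (log2 fold change 0.72, edgeR adjusted p = 0.0398). Nucleolar genes that did not pass included Ncl (1225 against 1678 CPM, edgeR adjusted p = 0.0772) and Fbl (151 against 225 CPM, edgeR adjusted p = 0.0680). Outside the list, Snhg3, a host gene of small nucleolar RNAs (log2 fold change 1.43, edgeR adjusted p = 0.00864), and Trmt6, a tRNA methyltransferase subunit (log2 fold change 1.25, edgeR adjusted p = 0.0267), were among the 15 largest rises. The call of Ranbp1 was lost without the control library of day 1, round 1 or the expanded library of day 1, round 2 (adjusted p = 0.0646 to 0.0649). The call of Snhg3 was lost without the control library of day 1, round 1 (adjusted p = 0.0543). The call of Srm was lost without any of the 4 day 1 libraries or the expanded library of day 2, round 2 (adjusted p = 0.067 to 0.111). The call of Trmt6 was lost without any of the 4 day 1 libraries, either day 4 library or the expanded library of day 2, round 2 (adjusted p = 0.0578 to 0.0956). The call of Odc1 was lost without either control library of day 1, the control library of day 2, round 1, the expanded library of day 1, round 2 or the expanded library of day 2, round 2 (adjusted p = 0.0559 to 0.102). The call of Ran was lost without any of the 4 day 1 libraries, either day 4 library, the control library of day 2, round 1 or the expanded library of day 2, round 2 (adjusted p = 0.0568 to 0.129). The call of Nhp2 was lost without any of the 4 day 1 libraries, the control library of day 2, round 1 or the expanded library of day 2, round 2 (adjusted p = 0.0624 to 0.128). With thinned members Odc1 passed, and Ranbp1 (0.160), Ran (0.140), Nhp2 (0.194) and Snhg3 (0.0688) had edgeR adjusted p above 0.05.

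Chchd10, a protein of the mitochondrial intermembrane space, was at 50.6, 30.02, 20.6, 54.5 and 42.8 CPM in the control libraries. With an expander the values were 162, 158, 88.4, 103 and 97.7 CPM. Its arms were separate, and its call held under every alternative run (edgeR adjusted p = 0.00648 for a log2 fold change of 1.47, SE 0.22). Of 23 glycolysis and hypoxia genes 3 rose and 1 fell (median 0.16), where 1.93% of all tested genes rose and 1.95% fell. The 3 were the glycolytic enzyme genes Gapdh (507 ± 109 against 788 ± 102 CPM; log2 fold change 0.56, edgeR adjusted p = 0.0442), Eno1 (55.5 ± 10.8 against 107 ± 28.6 CPM; log2 fold change 0.78, edgeR adjusted p = 0.038) and Ldha (276 ± 52.4 against 434 ± 62.5 CPM; log2 fold change 0.57, edgeR adjusted p = 0.0478). Gapdh has many pseudogenes, which can share its reads. Pfkp, an isoform of phosphofructokinase, fell (log2 fold change -0.62, edgeR adjusted p = 0.0445). Pkm was just above the threshold (265 against 416 CPM, edgeR adjusted p = 0.0503), and the hypoxia-responsive genes Vegfa (-0.030), Slc2a1 (0.055) and Ndrg1 (-0.96, log2 fold changes) did not pass. None of the 4 calls held with thinned members (edgeR adjusted p 0.113 to 0.170). The calls of Eno1 and Ldha were lost without any of the 4 day 1 libraries, the control library of day 2, round 1 or the expanded library of day 2, round 2 (adjusted p = 0.0577 to 0.147). The call of Gapdh was lost without any of the 4 day 1 libraries, either library of day 2, round 1 or the expanded library of day 2, round 2 (adjusted p = 0.0522 to 0.141). The call of Pfkp was lost without any of the 4 day 1 libraries, either day 4 library or the expanded library of day 2, round 2 (adjusted p = 0.0644 to 0.152).

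The heat shock chaperones went the other way. Of 15 tested, 3 fell, none rose and 13 had negative log2 fold changes (median -0.51). Among all tested genes 1.95% fell, and the median was -0.018. Dnajb1, the HSP40 partner of inducible HSP70, was at 592, 549, 619, 679 and 545 CPM in the control libraries. In the expanded arm it was at 271, 321, 428, 351 and 442 CPM. All control libraries were above all expanded libraries (edgeR adjusted p = 0.00978 for a log2 fold change of -0.82, SE 0.13). Hsp90aa1, the inducible cytosolic HSP90, was at 1262, 1154, 1404, 1011 and 993 CPM in the control libraries. Expanded libraries gave 817, 967, 787, 749 and 720.2 CPM. It too was separate between arms (edgeR adjusted p = 0.0301 for a log2 fold change of -0.62, SE 0.13). Dnaja1, another cytosolic HSP40, was lower in 5 of 5 pairs with some overlap (1054 ± 248 against 699.6 ± 177 CPM; edgeR adjusted p = 0.0267 for a log2 fold change of -0.70, SE 0.14). The inducible HSP70 genes Hspa1a (299 ± 148 against 147 ± 24.9 CPM; log2 fold change -0.97, edgeR adjusted p = 0.0553) and Hspa1b (log2 fold change -0.63, edgeR adjusted p = 0.152) and the ER chaperone Hspa5 (log2 fold change -0.48, edgeR adjusted p = 0.0577) did not pass. The positive values were those of the mitochondrial chaperonin genes Hspd1 (0.38) and Hspe1 (0.14), which also stand on the growth list. The call of Dnajb1 was lost without the expanded library of day 1, round 2 (adjusted p = 0.0523). The calls of Dnaja1 and Hsp90aa1 were lost without any of the 4 day 1 libraries, either day 4 library or the expanded library of day 2, round 2 (adjusted p = 0.0553 to 0.0946). With thinned members Dnajb1 passed, and Hsp90aa1 (0.0580) and Dnaja1 (0.0677) had edgeR adjusted p above 0.05. With members low in other cells' transcripts all 3 passed. Heat shock elements, as searched for above, stood in 2 of 16 list promoters (12.5%), those of Hspd1 and Hspe1. The CCAAT letters stood in 4 of the 16 (25%), those of Hspa1a, Hspa1b, Hspa5 and Hsp90b1, and the sterol element in 1 (6.25%), that of Hsp90b1.

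Immediate early genes, which cells switch on within minutes of stress such as tissue digestion, had negative log2 fold changes in 28 of 28 tested (median -0.44), and 1 passed. For this and the next 2 lists, the share to compare is that of all tested genes, of which 1.95% fell (median -0.018). Fosl2, an AP-1 transcription factor, went from 142 to 90.7 CPM in the means and was lower in 4 of 5 pairs (log2 fold change -0.75, edgeR adjusted p = 0.0406). Fos (7532 ± 2142 against 6213 ± 969 CPM; log2 fold change -0.35, edgeR adjusted p = 0.225), Jun (log2 fold change -0.39, edgeR adjusted p = 0.214) and Egr1 (log2 fold change -0.35, edgeR adjusted p = 0.254) did not pass. Nr4a3, an orphan nuclear receptor that is induced in the same way and was not on the list, was among the largest falls. It was at 123, 61.6, 92.9, 40.2 and 73.7 CPM in the control libraries. With expansion it stood at 17.7, 38.7, 31.9, 10.1 and 42.6 CPM. The arms overlapped only between 40.2 CPM in control day 2, round 2 and 42.6 CPM in expanded day 4 (edgeR adjusted p = 0.0373 for a log2 fold change of -1.43, SE 0.33). The call of Nr4a3 was lost without any of the 4 day 1 libraries, either day 4 library, the control library of day 2, round 1 or the expanded library of day 2, round 2 (adjusted p = 0.054 to 0.116). Of 10 genes of the EGF family 1 fell, the ligand gene Epgn (214 to 73.8 CPM, lower in 4 of 5 pairs; log2 fold change -1.59, edgeR adjusted p = 0.0442). Hbegf, the ligand of keratinocyte migration, was lower in 5 of 5 pairs without passing (701 ± 111 against 523 ± 53 CPM; log2 fold change -0.50, edgeR adjusted p = 0.0601), and Areg (log2 fold change -0.049, edgeR adjusted p = 0.985) and the receptor Egfr (log2 fold change -0.16, edgeR adjusted p = 0.61) did not pass. Of 19 cytokine and chemokine genes 1 fell, Il1rn, the interleukin 1 receptor antagonist (47.9 to 25.2 CPM; log2 fold change -1.21, edgeR adjusted p = 0.0373), and 18 did not pass, Cxcl1 and Ccl2 among them. The call of Fosl2 was lost without any of the 4 day 1 libraries, the control library of day 2, round 1 or the expanded library of day 2, round 2 (adjusted p = 0.0629 to 0.14). The call of Epgn was lost without any of the 4 day 1 libraries, either library of day 2, round 2 or either day 4 library (adjusted p = 0.0657 to 0.112). The call of Il1rn was lost without any of the 4 day 1 libraries, either day 4 library or the expanded library of day 2, round 2 (adjusted p = 0.0654 to 0.129). Fosl2 did not pass with thinned members (edgeR adjusted p = 0.247), nor Il1rn with members low in other cells' transcripts (edgeR adjusted p = 0.0501), and DESeq2 gave Epgn an adjusted p of 0.0730.

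The largest rise among the named genes was that of Cstdc5, a member of the stefin A cluster of cysteine protease inhibitors (chr16:36359382-36367748, minus strand). It was at 1.13, 16, 0, 53.6 and 63.1 CPM in the control libraries. The values with an expander were 443, 737, 913, 128 and 359.8 CPM. Every expanded library was above every control library, although the control values ranged from 0 to 63.1 CPM (edgeR adjusted p = 0.00854 for a log2 fold change of 4.16, SE 0.66). The cluster holds near-identical copies, so reads may be split among them; Stfa3, of the same cluster, was higher in 5 of 5 pairs without passing (log2 fold change 1.32, edgeR adjusted p = 0.10). Rbp2, a cellular retinol-binding protein, was at 4.5, 4.14, 0, 6.26 and 3.21 CPM in the control libraries. The expanded libraries had 44.7, 57.2, 25.8, 10.1 and 16.5 CPM. The arms did not overlap (edgeR adjusted p = 0.00213 for a log2 fold change of 2.86, SE 0.36). Lcn2, the antimicrobial siderophore-binding lipocalin, was at 11.3, 36.7, 0, 16.1 and 51.3 CPM in the control libraries. With an expander the values were 56.9, 87.9, 95.7, 136 and 278 CPM. Both day 4 values were the highest of their arms, and the arms did not overlap (edgeR adjusted p = 0.010 for a log2 fold change of 2.07, SE 0.34). The call of Lcn2 was lost without the control library of day 1, round 1 (adjusted p = 0.0539). With thinned members its adjusted p was 0.0607. Gda, the guanine deaminase (7.52 ± 2.09 against 22.8 ± 5.18 CPM; log2 fold change 1.39, edgeR adjusted p = 0.010), Ltbr, the lymphotoxin beta receptor (7.97 ± 4.58 against 24.3 ± 4.56 CPM; log2 fold change 1.31, edgeR adjusted p = 0.0257), and Gpx2, a glutathione peroxidase (9.49 ± 6.46 against 29.2 ± 13.4 CPM; log2 fold change 1.30, edgeR adjusted p = 0.0304), completed the 15 largest rises. The call of Gda was lost without the control library of day 1, round 1 or the expanded library of day 1, round 2 (adjusted p = 0.0595 to 0.0695). The call of Ltbr was lost without any of the 4 day 1 libraries or the expanded library of day 2, round 2 (adjusted p = 0.0553 to 0.0956). The call of Gpx2 was lost without either expanded library of day 1, either day 4 library, the control library of day 1, round 1 or the expanded library of day 2, round 2 (adjusted p = 0.0644 to 0.0879).

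Of the wound-induced keratins, Krt6a was higher in 5 of 5 pairs. It was at 363, 614, 10.3, 419 and 344 CPM in the control libraries. In the expanded arm it was at 458, 755, 1540.2, 992 and 1365 CPM. The control library of day 2, round 1, with 25 members, was at 10.3 CPM and the arms overlapped, and the difference did not pass (log2 fold change 1.39, edgeR adjusted p = 0.118). Krt16 was at 199 ± 155 against 275 ± 247 CPM (log2 fold change 0.30, edgeR adjusted p = 0.803) and none of the 4 tested wound keratins passed. Krt6b, a near-identical copy of Krt6a, had 0 UMIs in all control members and 239 in expanded members. It was at least 39.0-fold higher over a floor of 3 counts in the whole control arm, which covers counting error only. S100a8 and S100a9, alarm proteins of wounded epidermis and of neutrophils, had 11 and 5 UMIs in control and 298 and 450 in expanded members, and were below the filter on low counts. Without that filter both were called higher in edgeR. Cxcr2, a neutrophil receptor gene, had 2 UMIs in control and 31 in expanded members. Of 6 tested alarm genes, 1 rose (Lcn2) and 1 fell, the macrophage and neutrophil gene Lyz2 (14.3 to 5.89 CPM; log2 fold change -1.75, edgeR adjusted p = 0.0193). Over all tested genes, 1.93% rose and 1.95% fell. The call of Lyz2 was lost without any of the 4 day 1 libraries (adjusted p = 0.0587 to 0.0956).

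The genes that fell furthest included matrix and enzyme genes. Matn4, a matrilin of the pericellular matrix, was at 39.4, 51.2, 36.1, 30.4 and 35.3 CPM in the control libraries. Expanded libraries gave 16.1, 14.5, 3.68, 4.06 and 11 CPM. The expanded libraries were all below the lowest control library (edgeR adjusted p = 0.00213 for a log2 fold change of -1.93, SE 0.23). Akr1c18, a steroid dehydrogenase that inactivates progesterone, was at 22.5, 21.2, 20.6, 60.8 and 12.8 CPM in the control libraries. With expansion it stood at 3.53, 2.38, 1.23, 0 and 4.13 CPM. The highest expanded library, at 4.13 CPM, was below the lowest control library, at 12.8 CPM (edgeR adjusted p = 0.00213 for a log2 fold change of -3.24, SE 0.42), though near-identical Akr1c genes may share its reads. Sema3d, a secreted guidance cue, was separate between arms (22 ± 4.96 against 7.51 ± 5.38 CPM; log2 fold change -1.54, edgeR adjusted p = 0.0389), and Tnfaip6, a hyaluronan-binding protein (26.7 ± 13.7 against 6.41 ± 5.0 CPM; log2 fold change -1.99, edgeR adjusted p = 0.010), Crabp1, a retinoic acid-binding protein (log2 fold change -1.69, edgeR adjusted p = 0.0426), Igf2bp2, an RNA-binding protein (log2 fold change -1.41, edgeR adjusted p = 0.0416), Ddah2 (log2 fold change -1.23, edgeR adjusted p = 0.0379) and Ifi203 (log2 fold change -1.39, edgeR adjusted p = 0.0283) were lower in 5 of 5 pairs. The call of Tnfaip6 was lost without the control library of day 1, round 1 (adjusted p = 0.0617). The calls of Sema3d, Crabp1 and Igf2bp2 were lost without any of the 4 day 1 libraries, either day 4 library, the control library of day 2, round 1 or the expanded library of day 2, round 2 (adjusted p = 0.0577 to 0.151). The call of Ifi203 was lost without either library of day 1, round 2, either day 4 library or the expanded library of day 2, round 2 (adjusted p = 0.0621 to 0.103). The call of Ddah2 was lost without either expanded library of day 1, either day 4 library, the control library of day 1, round 2, the control library of day 2, round 1 or the expanded library of day 2, round 2 (adjusted p = 0.0537 to 0.16).

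The type I collagen genes Col1a2 and Col1a1 had the largest falls of the named genes. Col1a2 was at 405, 210.1, 232, 58.1 and 302 CPM in the control libraries. The values with an expander were 58.1, 22.6, 11, 12.2 and 12.4 CPM. Col1a1 was at 360.1, 227, 175, 57.2 and 302 CPM in the control libraries. The expanded libraries had 56.9, 29, 12.3, 12.2 and 8.25 CPM. Each had its highest expanded value in day 1, round 1, and the lowest control value in day 2, round 2, so that the arms nearly met, at 58.1 CPM in both for Col1a2 and at 56.9 and 57.2 CPM for Col1a1 (log2 fold changes -3.47 and -3.36, each edgeR adjusted p = 0.00213). Col3a1, Dcn, Sparc, Col6a1 and Lum fell too. In all, 7 of the 10 tested fibroblast-list genes fell and none rose (median -1.92), where 1.95% of all tested genes fell. These are the genes of the fibroblast list whose sum was 471 to 1757 CPM in control and 144 to 366 CPM in expanded members. With members limited to 0.2% of UMIs from other cells' lists, 127 genes passed, 123 of them among the 299, and 5 of 6 tested fibroblast genes were still lower. That limit was set on sums that include the fibroblast genes, so their result under it is not independent of it. It kept 55 of 115 members in the control library of day 4 and 398 of 416 in the expanded library of day 1, round 2. The call of Col6a1 was lost without the expanded library of day 1, round 2 (adjusted p = 0.0523). The call of Dcn was lost without either expanded library of day 1, either library of day 2, round 2, either day 4 library or the control library of day 1, round 1 (adjusted p = 0.0529 to 0.125). The call of Lum was lost without either day 4 library, the control library of day 1, round 1 or the expanded library of day 1, round 2 (adjusted p = 0.0568 to 0.0956). In all, 8 of the 299 called genes were on a list of another cell type, and all 8 fell. The part of fibroblast transcripts in the other falls was not tested beyond that restricted fit.

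Adhesion to the basement membrane is the defining function of these cells. Of 17 tested hemidesmosome and laminin genes 1 fell (median -0.072); over all tested genes 3.88% passed. Dst, the plakin that ties keratin to the hemidesmosome, was at 634, 599.8, 408, 612 and 648 CPM in the control libraries. With an expander the values were 545, 455, 387, 394 and 402 CPM. The expanded values were lower in 5 of 5 pairs, and the control library of day 2, round 1 lay within the expanded range (edgeR adjusted p = 0.0482 for a log2 fold change of -0.50, SE 0.13). The call of Dst was lost without any of the 4 day 1 libraries, either library of day 2, round 2 or either day 4 library (adjusted p = 0.0702 to 0.153). Col17a1 was at 660.5 ± 148 against 724 ± 174 CPM (log2 fold change 0.040, SE 0.12), Itga6 at 364 ± 100.7 against 375 ± 87.2 CPM (-0.035, SE 0.20) and Itgb4 at 122 ± 19.7 against 158 ± 28.2 CPM (0.26, SE 0.15; edgeR adjusted p = 0.878, 0.948 and 0.293). Of 21 cell junction genes 1 fell, the tight junction gene Cldn1 (265 ± 84.2 against 159 ± 31.4 CPM; log2 fold change -0.81, edgeR adjusted p = 0.0267), which passed with thinned members. The call of Cldn1 was lost without any of the 4 day 1 libraries, either day 4 library or the expanded library of day 2, round 2 (adjusted p = 0.0565 to 0.0956). Desmosomal Dsp (0.069), Dsg3 (0.30) and Pkp1 (0.48, log2 fold changes) did not pass. Of 17 migration and matrix genes 1 fell, the fibronectin gene Fn1 (18.3 ± 5.64 against 7.07 ± 6.5 CPM; log2 fold change -1.54, edgeR adjusted p = 0.0463), which fibroblasts also express. The call of Fn1 was lost without any of the 4 day 1 libraries, either day 4 library, the control library of day 2, round 1 or the expanded library of day 2, round 2 (adjusted p = 0.0642 to 0.173). The list's median was -0.61, with Thbs1 at -1.0, Vim at -1.06 and Tnc at -0.85, none of which passed.

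Of the genes tied to stretch and to cell tension, 1 passed the test, where 3.88% of all tested genes passed. Of 33 actin cytoskeleton genes none passed in edgeR (8 had an unadjusted p under 0.05; DESeq2 called 1 higher and 3 lower), with a median of -0.062. Actb was at 2576 ± 244 against 2965 ± 432 CPM (log2 fold change 0.11, edgeR adjusted p = 0.578) and Pfn1, the actin monomer carrier profilin, at 507 ± 86.8 against 745 ± 86.1 CPM (log2 fold change 0.47, edgeR adjusted p = 0.0503). Of 17 targets and partners of the tension-responsive YAP and TAZ proteins 1 fell, the YAP-binding phosphatase gene Ptpn14. The median of these 17 was -0.36 and 4 were positive, against -0.018 and 3713 of 7706 over all tested genes, and 8 had an unadjusted p under 0.05. It was at 100.2, 78.2, 134, 72.4 and 74.8 CPM in the control libraries. In the expanded arm it was at 70.6, 52.6, 27, 44.6 and 48.1 CPM. Its arms did not overlap (edgeR adjusted p = 0.049 for a log2 fold change of -0.89, SE 0.23). The call of Ptpn14 was lost without any of the 4 day 1 libraries, either day 4 library, the control library of day 2, round 1 or the expanded library of day 2, round 2 (adjusted p = 0.0537 to 0.146). Ccn2, the most used YAP target, was higher in 5 of 5 pairs without passing (36.5 ± 13.8 against 76.6 ± 46.6 CPM; log2 fold change 0.78, edgeR adjusted p = 0.0843), Ccn1 was at 440.3 ± 143 against 346 ± 95 CPM (log2 fold change -0.43, edgeR adjusted p = 0.20), and Ankrd1 had 0 UMIs. Of the stretch-activated channels 4 of 11 were high enough to test and none passed in edgeR (0 unadjusted; DESeq2 called 0 higher and 0 lower); their median was -0.21, with 1 positive. Piezo1, a channel opened by membrane tension, was at 17.1 ± 13.4 against 14.9 ± 4.85 CPM (log2 fold change -0.48, edgeR adjusted p = 0.428). Among 19 Wnt pathway genes none passed either (1 unadjusted; DESeq2 called 0 higher and 0 lower), Wnt4 and Axin2 among them.

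**Figure D5:**
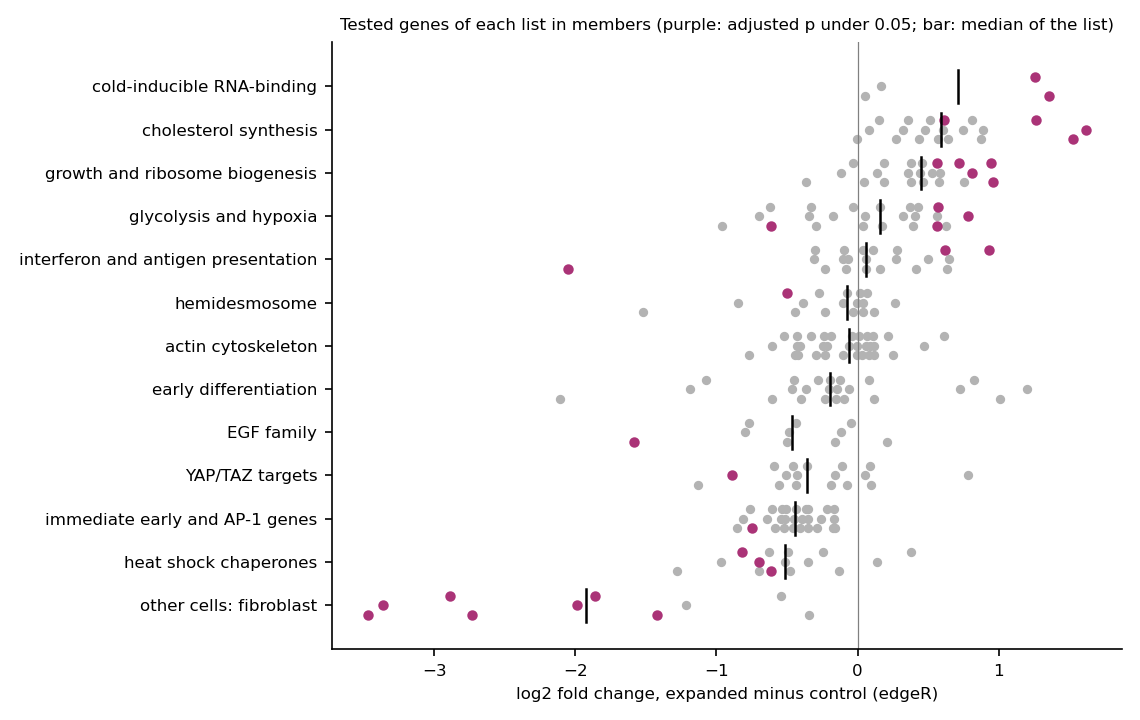
Log2 fold change (expanded over control, x axis) of each tested gene of 13 lists (rows), with genes past an edgeR adjusted p of 0.05 in purple and the list's median as a bar. The cholesterol (median 0.59), growth (0.45) and cold-inducible (0.71) lists lie to the right of 0, and the heat shock (-0.51), immediate early (-0.44) and fibroblast (-1.92) lists to the left.

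Differentiation and the follicle compartments showed few calls, where 3.88% of all tested genes passed. None of 23 early differentiation genes passed in edgeR (8 had an unadjusted p under 0.05; DESeq2 called 0 higher and 1 lower): Krtdap was at 186 ± 151 against 474 ± 154 CPM (log2 fold change 1.2, edgeR adjusted p = 0.146) and Ovol1, a repressor that starts differentiation, at 188 ± 113 against 78.3 ± 23.6 CPM (log2 fold change -1.19, edgeR adjusted p = 0.0696). None of the 3 cornified envelope genes that were matched by symbol and tested passed (unadjusted 2, DESeq2 0 higher and 0 lower). The list also holds BC100530, the name that GENCODE vM21 gives to the identifier of Cstdc5. It was not matched by symbol, and Cstdc5 rose (log2 fold change 4.16, edgeR adjusted p = 0.00854). Of the interfollicular list (9 tested) Tgfbi rose and Dcn fell, and of the lower follicle list (15 tested) none passed in edgeR (4 unadjusted; DESeq2 0 higher and 0 lower). Tgfbi, an adhesive matrix protein induced by TGF-beta, was at 203, 189, 243, 216 and 166 CPM in the control libraries. Expanded libraries gave 338, 334, 281, 339 and 283 CPM. The arms were separate (edgeR adjusted p = 0.0373 for a log2 fold change of 0.57, SE 0.13), and of 20 TGF-beta and BMP genes it was the one that passed. Plet1 was lower in 5 of 5 pairs and just missed the threshold (729 ± 290.2 against 342 ± 157 CPM; log2 fold change -1.14, edgeR adjusted p = 0.0512), and Lgr5 (log2 fold change -0.60, edgeR adjusted p = 0.174) and Sox9 (log2 fold change -0.29, edgeR adjusted p = 0.364) did not pass. The call of Tgfbi was lost without any of the 4 day 1 libraries, either day 4 library or the expanded library of day 2, round 2 (adjusted p = 0.0742 to 0.114).

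In the remaining lists, 1 of 23 cell cycle entry genes rose, the replication helicase subunit gene Mcm3 (17 ± 7.38 against 28.6 ± 3.2 CPM; log2 fold change 0.84, edgeR adjusted p = 0.0478). Cycling cells had been removed by the rule. For the lists of this paragraph, the shares over all tested genes were 1.93% higher and 1.95% lower. The call of Mcm3 was lost without any of the 4 day 1 libraries, either day 4 library, the control library of day 2, round 1 or the expanded library of day 2, round 2 (adjusted p = 0.0528 to 0.146). With the replicate block its adjusted p was 0.0501. Its partners Mcm2, Mcm4, Mcm5 and Mcm7 were higher in 5 of 5 pairs with log2 fold changes of 0.70, 0.35, 0.74 and 0.54 and did not pass. Of 21 interferon and antigen presentation genes 2 rose and 1 fell. Ifitm3 (846 ± 464 against 1578 ± 262 CPM; log2 fold change 0.93, edgeR adjusted p = 0.0374) and Ifitm2 (464 ± 138 against 732 ± 70.5 CPM; log2 fold change 0.62, edgeR adjusted p = 0.0389), membrane proteins that restrict viruses and whose near-identical sequences may share reads, were higher in 5 of 5 pairs. Gbp2, an interferon-induced GTPase, was lower in 4 of 5 (log2 fold change -2.05, edgeR adjusted p = 0.0442), whereas Isg15 (log2 fold change 0.058) did not pass. Of 22 redox genes Gpx2 rose, and of 19 circadian and glucocorticoid genes the transcription factor gene Klf9 fell (363 ± 103 against 209 ± 19.6 CPM; log2 fold change -0.87, edgeR adjusted p = 0.0406). The call of Ifitm3 was lost without any of the 4 day 1 libraries, the control library of day 2, round 1 or the expanded library of day 2, round 2 (adjusted p = 0.0629 to 0.119). The calls of Ifitm2 and Klf9 were lost without any of the 4 day 1 libraries, either day 4 library, the control library of day 2, round 1 or the expanded library of day 2, round 2 (adjusted p = 0.0537 to 0.133). The call of Gbp2 was lost without any of the 4 day 1 libraries, either library of day 2, round 2 or either day 4 library (adjusted p = 0.0741 to 0.122). DESeq2 gave Gbp2 an adjusted p of 0.0989.

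Whether the expansion effect differed between day 2 and day 1 was asked on the 8 libraries of those days. No gene passed among 9682 tested (0%, higher 0% and lower 0%; edgeR, with 840 genes at an unadjusted p under 0.05; DESeq2 was not run), which does not show that the effects were equal. Day 4 had 1 library per arm and no test of its own. There, Rbm3 was at 568 CPM without and 1259.5 CPM with an expander and Aqp3 at 403 and 739 CPM, with both differences in the direction of the earlier days. For Idi1 (47.0 and 114 CPM) and Fdps (52.4 and 96.3 CPM) the day 4 pair differed in the same direction as the others, and for Mvk it was nearly level, at 11.8 and 12.4 CPM.

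The same genes were then compared with 2 neighbouring groups of keratinocytes. Bulge cells (1690) met every limit except that on bulge genes, and Krt79-positive cells (570) every limit except that on Krt79. Libraries with fewer than 20 cells of a group were left out. In bulge cells Rbm3 went from 486 to 1217 CPM (difference of log2 fold changes -0.041, edgeR adjusted p = 0.99), Cirbp from 101.1 to 248 CPM, Aqp3 from 478 to 969.9 CPM and Idi1 from 57 to 168 CPM. In Krt79-positive cells Rbm3 went from 588 to 1340.4 CPM (difference of log2 fold changes 0.092, edgeR adjusted p = 0.972). Aqp3 went from 598 to 842 CPM there (difference 0.65, edgeR adjusted p = 0.372). Values of some other named genes were less alike. In bulge cells Gda went from 25.7 to 29.1 CPM (difference 1.35, edgeR adjusted p = 0.117). Crabp1 went from 28.8 to 58.7 CPM in bulge cells, while it fell in members. Akr1c18 went from 112 to 91.1 CPM in Krt79-positive cells (difference -2.68, edgeR adjusted p = 0.372). For none of the named genes did the difference of effects pass in either comparison (lowest edgeR adjusted p = 0.117), which does not show that the effects were equal. Over all genes, 3 of 9336 (0.0321%) passed against bulge cells, 2 with a higher (0.0214%) and 1 with a lower difference (0.0107%), with 642 at an unadjusted p under 0.05. Against Krt79-positive cells 1 of 8361 passed (0.012%), in the lower direction (0.012%, and 0% higher), with 535 at an unadjusted p under 0.05.

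Efemp1 and Tnxb, both matrix protein genes, were those with a higher difference. Efemp1 was at 94.8, 57.9, 31.1 and 45.4 CPM in control bulge cells of day 1, day 2 round 2 and day 4, and at 5.33, 6.52, 1.51, 0 and 2.96 CPM in expanded bulge cells. In members it was at 19.1, 14.5, 4.47 and 17.1 CPM against 8.24, 11.5, 8.59, 2.03 and 4.82 CPM, a difference of log2 fold changes of 2.87 (SE 0.34, edgeR adjusted p = 0.00192). Bulge cells were thus low in all expanded libraries, and members differed less. Tnxb was at 91.1, 86.8, 15.95 and 34.5 against 14.7, 9.57, 6.04, 4.97 and 1.48 CPM in bulge cells, and at 40.5, 30.0, 29.5 and 20.3 against 44.3, 35.3, 23.3, 22.3 and 7.57 CPM in members (difference 2.62, SE 0.37, edgeR adjusted p = 0.00606). The control library of day 2, round 1 had 14 bulge cells and was left out of this fit. Control bulge cells held more fibroblast transcripts than control members: Col1a1 was at 4521 against 237 CPM in the fitted control libraries. In the fitted expanded libraries Col1a1 was at 259 CPM in bulge cells and 23.7 CPM in members. The part of fibroblast transcripts in the differences for Efemp1 and Tnxb was not tested. Hbb-bs, a haemoglobin gene with a near-identical copy, had a difference of -8.69 (SE 1.00, edgeR adjusted p = 0.00192) that rested on bulge cells of 2 expanded libraries, at 378 and 3285 CPM. Serpinb3b, a serpin of a near-identical cluster, was at 1.89, 25.8, 58.7 and 123 CPM in expanded Krt79-positive cells and 0 in their control libraries, while members had 1.13, 0, 1.79 and 21.4 CPM in the fitted control and 1.57, 4.17, 11.0 and 21.3 CPM in the fitted expanded libraries (fitted difference -8.56, which depends on the prior count since a group was at 0, SE 1.13, edgeR adjusted p = 0.0292). The calls were lost for Tnxb without the control library of day 1, round 1 (0.0679), for Hbb-bs without the control library of day 2, round 2 (0.0534), and for Serpinb3b without the expanded libraries of day 1, round 2 (0.108), day 2, round 1 (0.0628) or day 4 (0.0621) or the control library of day 4 (0.968). Efemp1 and Tnxb were lost without called doublets (0.245 and 0.299).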

How the data were processed

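The deposited matrices hold raw counts of UMIs per gene and barcode, not normalized, which the authors obtained from Cell Ranger 6.1.2 on mm10 per the submitters' processing notes and the file headers; the annotation version is not given in the sources used here. The 18 samples were 10 mRNA libraries and 8 hashing samples with antibody barcode lists only, which the comparisons do not use. Of the 32285 genes per matrix, 78 share a symbol and were kept apart by identifier. Kept barcodes had 200 or more genes, 500 or more UMIs and a mitochondrial share of 10% or less, and the members were taken from them by the rule. The members and all gene lists were chosen with earlier results of these data known, so no list's direction is independent evidence.

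Doublets stayed in, as in the rule. Scrublet (scanpy 1.11.5) called 0.0584 to 2.97% of a library and 8 members, and hashtag demultiplexing (Seurat 5.3.0, quantile 0.99) found more than 1 hashtag in 22 members, 30 by either. Hashtags gave 457 of 1140 members of hashed libraries to a mouse, and 9 of 28 mice had 20 or more, so libraries, not mice, were the replicates.

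Members' UMIs were summed per library (all had at least 20 members). edgeR 4.0.16 in R 4.3.3 fitted day and arm with TMM scaling and its default filter on low counts, with Benjamini-Hochberg adjustment over all genes and a threshold of 0.05. Differences of effects between days and between cell groups were interaction terms. Log2 fold changes come from the fit and CPM from summed counts. Shares were tested with exact permutation over 252 arrangements. Intervals are exact binomial at 95%, and they and the floor of 3 counts speak for counting error alone. The precision of a gene's value follows the members' summed UMIs, which were fewest in the control library of day 2, round 1. The fit was tested on simulated data. Genes were named by a rule: the 15 largest changes per direction among called genes with at least 20 CPM in the higher arm and the same direction in every pair, up to 4 called genes per list by smallest p, and up to 5 per direction for interactions. List genes named with values that did not pass were picked by role, after values had been seen. The alternatives were RLE scaling, no filter, thinning to 2000 UMIs, no doublets, DESeq2 1.42.0, a keratin limit of 1%, a replicate block, each library left out, and, added after seeing the data, members with at most 0.2% of UMIs from other cells' lists, the Krt79-positive comparison, and fits without day 2, round 1 or without day 2. The labels pair control and expanded libraries by day and sequencing round. Paired libraries deviated together on day 1 (correlation of deviations 0.32) and hardly on day 2 (0.011, over 7706 genes with 10 CPM added). Positions are those of GENCODE vM21 on GRCm38 by Ensembl identifier, 57 of 57 matched.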

Additional observations from a re-analysis of the deposited data

Results flagged for a closer look

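Of 112 groups of 5 libraries examined gene by gene, 4 had a library that stood apart, where chance gives about 1 in 20, or 5.6. Ltbr had 0 CPM in round 1 of day 2 without an expander, the library with 25 members, against 8.55 to 11.3 CPM in the other control libraries. Col1a2 was at 58.1 CPM in the expanded library of day 1, round 1, against 11.0 to 22.6 CPM in the others. Akr1c18 had 60.8 CPM in round 2 of day 2 without an expander, against 12.8 to 22.5 CPM. Dst had 408 CPM in round 1 of day 2 without an expander, against 599.8 to 648 CPM.

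The expansion effect differed between members and bulge cells by the interaction test for 3 genes, in log2 units by 2.87 for Efemp1, 2.62 for Tnxb and -8.69 for Hbb-bs. Between members and Krt79-positive cells it differed by -8.56 for Serpinb3b.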

How the results depend on the processing

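The named genes of the main comparison (53) kept their direction under every alternative run that tested them. Without filter on low counts and with RLE scaling they all stayed past the threshold, and median log2 fold changes over all genes moved by less than 0.1 under every scaling. The count of called genes was 299. It was 320 with RLE scaling, 337 without doublets, 391 without day 2, 923 without filter, 527 with DESeq2, 563 with the replicate block, 27 with thinned cells, 66 with the keratin limit of 1%, 127 with few other cells' transcripts, 624 without both libraries of day 2, round 1, and 27 to 643 with each library left out in turn. The split of calls was 149 higher and 150 lower, 253 and 371 without day 2, round 1, 164 and 227 without day 2, and 248 and 315 with the replicate block, which changed no call of a named gene except that of Mcm3. For the difference between days, 0 genes passed in the main fit, 136 without filter and 0 to 2 with each library left out. For that between members and bulge cells, the 3 calls became 130 without filter, 1 with thinned cells, 1 without doublets and 2 to 12 with each library left out; for Krt79-positive cells 1 became 51, 0, 2 and 0 to 2. With each library left out, differences in shares ranged from 1.30 to 2.69 points among all kept cells and from 2.42 to 4.20 among Ptprc-negative cells. Among keratin-positive cells they ranged from -10.5 to -5.15. The difference among Ptprc-negative cells was 8.57 with the rule's unchanged limits applied after thinning, which changes the cells counted. The cause of these changes was not tested, apart from fewer genes tested with thinned cells (2702 against 7706). The planned comparison with spinous cells could not be fitted, since 1 library per arm had 20 or more of them (21 and 24), and every library already had 20 members, so that alternative equals the main fit.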

Other observations

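Nuclear-encoded genes of mitochondria were among the called genes outside the lists. These families were picked by symbol after the called genes had been seen, so their counts are a description. Of 77 mitochondrial ribosome genes 10 rose and none fell, 69 had positive log2 fold changes and the median was 0.41. Of 21 genes of mitochondrial protein import (Timm and Tomm) 7 rose, all 21 were positive and the median was 0.55. Of 81 genes of the respiratory chain and ATP synthase 9 rose and 75 were positive (median 0.32). Tomm40, the import pore, was at 51.1 ± 8.26 against 111 ± 16.3 CPM (log2 fold change 1.02, edgeR adjusted p = 0.00474), Mrpl12 at 71.5 ± 21.6 against 135 ± 22.7 CPM (log2 fold change 0.83, edgeR adjusted p = 0.0163) and Ndufa4 at 242 ± 60.1 against 469.8 ± 64.9 CPM (log2 fold change 0.86, edgeR adjusted p = 0.0163). The 77 cytosolic ribosomal protein genes had no call in edgeR, 21 positive values and a median of -0.080. Over all 7706 tested genes, 3.88% passed and 3713 were positive. The call of Mrpl12 was lost without any of the 4 day 1 libraries (adjusted p = 0.0534 to 0.0699). The call of Ndufa4 was lost without either control library of day 1 or the expanded library of day 1, round 2 (adjusted p = 0.0629 to 0.0699). With thinned members Mrpl12 had an edgeR adjusted p of 0.162.

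The nuclear RNAs Malat1 and Neat1 both fell. Malat1 was at 22525, 25139, 23650.2, 19881 and 22876 CPM in the control and 18599, 15385, 14445, 15386 and 14899.6 CPM in the expanded libraries, which did not overlap (log2 fold change -0.63, edgeR adjusted p = 0.00758). It is the members' most abundant transcript, and its call held under each alternative run, with thinned members at a log2 fold change of -0.47 (edgeR adjusted p = 0.0148). Neat1 was at 1724 ± 302 against 1267 ± 255 CPM (log2 fold change -0.54, edgeR adjusted p = 0.0406). Apoe, an abundant lipid carrier, was at 11070.5 ± 1700.2 against 7522 ± 897 CPM (log2 fold change -0.65, edgeR adjusted p = 0.0267), and Zbtb20, a transcriptional repressor, at 123 ± 30.01 against 57.9 ± 20.7 CPM (log2 fold change -1.17, edgeR adjusted p = 0.00213). Hnrnpd, an RNA-binding protein, was at 138 ± 14.9 against 283 ± 23.8 CPM (log2 fold change 0.96, edgeR adjusted p = 0.00278), with 115, 137, 134, 151 and 151 CPM in control and 257, 313, 270.0, 304 and 273 CPM in expanded libraries. The call of Neat1 was lost without any of the 4 day 1 libraries, either day 4 library, the control library of day 2, round 1 or the expanded library of day 2, round 2 (adjusted p = 0.0597 to 0.139). The call of Apoe was lost without any of the 4 day 1 libraries or the expanded library of day 2, round 2 (adjusted p = 0.0644 to 0.0956). With thinned members Neat1 (0.153) and Zbtb20 (0.177) had edgeR adjusted p above 0.05.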
